A study of Homo sapiens with 16 samples.

Results

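The genes described are the subunits, inhibitors and feedback genes of the transcription factor NF-kB, taken as a list of 10 by symbol: NFKB1, NFKB2, REL, RELA, RELB, NFKBIA, NFKBIB, NFKBIE, TNFAIP3 and BCL3. Of these, 9 were found among the 18080 genes of the deposited count table, and NFKBIB is not analysed here. In a second deposited table, on splicing, 3 of the 10 had entries. The RNA came from wild-type HL60, an established line from a human promyelocytic leukaemia. The treated group had 50 nM SY-351, which inhibits CDK7, a kinase of the transcription factor TFIIH, for 5 h, and the control group had the solvent DMSO for 5 h. Each group had 4 numbered replicates with 2 technical repeats each, and the study asked how CDK7 acts in expression, splicing and termination. The labels do not state whether replicates were grown separately, so the p-values cover only the variation among these libraries, which may be technical.

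NF-kB is a dimer of Rel family proteins. RELA, RELB and REL carry an activation domain, and NFKB1 and NFKB2 encode precursors that are cut to the subunits p50 and p52. The inhibitors IkB-alpha (NFKBIA) and IkB-epsilon (NFKBIE) hold dimers in the cytoplasm until IkB kinase marks them for destruction, and the freed dimers bind kB sites in DNA. NFKBIA, TNFAIP3, NFKB2, RELB and BCL3 are known targets of NF-kB itself, which makes them parts of feedback loops.

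To show the kB sites near the starts of genes that fell, the 300 bases around the listed start nearest to each counted interval (250 before it and 50 after) were searched on both strands for the kB consensus, for members with a start in the RefSeq table on GRCh38.p14. That table had a start for 7 of the 9 measured members, and 5 of those 7 held a match: NFKB2, REL, NFKBIA, TNFAIP3 and BCL3. NFKB1 had no match at that start and had one at its other listed start. RELA, which was called lower, had no match, and RELB and NFKBIE, also called lower, had no start to search. REL had a match and was not called lower with all libraries. Over all 35116 starts listed, 11.3% held one. The 250 bases before the start are shown for 3 genes that fell, 5′ to 3′ on the gene's own strand, with the matches in capitals.
NFKB2, chr10:102395455-102395704, plus strand: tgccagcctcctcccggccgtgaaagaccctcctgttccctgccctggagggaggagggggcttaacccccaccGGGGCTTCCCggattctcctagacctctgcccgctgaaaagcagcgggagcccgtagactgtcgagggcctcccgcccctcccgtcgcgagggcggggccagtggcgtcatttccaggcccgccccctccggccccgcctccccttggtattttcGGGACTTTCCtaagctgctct
NFKBIA, chr14:35404750-35404999, minus strand: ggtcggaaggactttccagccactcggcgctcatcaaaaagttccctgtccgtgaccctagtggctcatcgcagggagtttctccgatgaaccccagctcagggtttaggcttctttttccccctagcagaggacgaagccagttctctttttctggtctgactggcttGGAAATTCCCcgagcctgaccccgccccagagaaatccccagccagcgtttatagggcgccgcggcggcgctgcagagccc
TNFAIP3, chr6:137867009-137867258, plus strand: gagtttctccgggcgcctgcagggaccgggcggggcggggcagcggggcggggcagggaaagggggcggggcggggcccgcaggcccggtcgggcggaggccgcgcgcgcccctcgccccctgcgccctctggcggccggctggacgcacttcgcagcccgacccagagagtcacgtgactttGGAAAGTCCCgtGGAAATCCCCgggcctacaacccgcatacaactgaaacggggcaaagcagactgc
The NFKB2 match nearest the start, GGGACTTTCC, lay 21 to 12 bases before it. In NFKBIA the match was on the opposite strand, read as GGGAATTTCC there, 81 to 72 bases before the start. TNFAIP3 had a pair of matches on the opposite strand, GGGACTTTCC and GGGGATTTCC. The BCL3 match, GGGAAGTCCC, was at bases 3 to 12 of the transcript. A match describes letters and does not show that NF-kB was bound.

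The control libraries did not form a single group, which touches every value that follows. On the log2 scale of CPM (counts scaled to a common library size, with TMM factors), DMSO 1 and 2 correlated with DMSO 3 and 4 at r = 0.756 to 0.785 across genes. The SY-351 libraries correlated with each other at 0.992 to 0.998, with DMSO 3 and 4 at 0.938 to 0.955 and with DMSO 1 and 2 at 0.716 to 0.748. The labels name no batch. Total counts were 43.3 to 77.9 M in SY-351 libraries and 103.7 to 124.2 M in DMSO libraries, and 3 counts were worth 0.0150 to 0.0676 CPM. The TMM factors were 0.661 and 0.657 in DMSO 1 and 2 and 1.61 and 1.21 in DMSO 3 and 4. They were 1.02 to 1.07 in SY-351 libraries. Each member is therefore given against all 4 DMSO libraries and also against each pair alone. To check HL60 identity, the 4 promyelocyte markers with counts, of 7 listed, were read. MPO, the granule enzyme myeloperoxidase, had 28255 to 32714 CPM in SY-351 libraries and 12113 to 48109 CPM in DMSO libraries. CTSG had 586 to 670 CPM in SY-351, 83.9 and 19.4 in DMSO 1 and 2, and 211 and 280 in DMSO 3 and 4. CD33 had 74.9 to 80.3 CPM in SY-351, 5.64 and 3.10 in DMSO 1 and 2, and 62.4 and 86.4 in DMSO 3 and 4. MYB had 128 to 136 CPM in SY-351 libraries and 207 to 305 CPM in DMSO libraries. MPO, CTSG and CD33 thus differed between the DMSO pairs, MPO in the opposite direction.

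With all 8 libraries, 7 of the 9 measured members were lower in SY-351 cells at an adjusted p below 0.05 (edgeR's quasi-likelihood test, Benjamini-Hochberg adjustment over all genes), and 0 were higher. Across all 15472 genes tested, 13.6% were called lower and 2.91% higher. The members' median log2 fold was -3.86, against 0.004 for all genes. The 7 were NFKB2, RELA, RELB, NFKBIA, NFKBIE, TNFAIP3 and BCL3, and each was below every DMSO library in every SY-351 library, as were 18.2% of all genes. NFKB1 and REL did not pass. Against DMSO 3 and 4 alone all 9 were called lower, where the background was 26.4% lower and 21.9% higher. Against DMSO 1 and 2 alone 7 were called lower and NFKB1 was called higher, where the background was 38.4% lower and 40.8% higher. Each pair alone gives 2 control libraries, and edgeR draws a gene's spread partly from the other genes. The members' standard errors against DMSO 3 and 4 were all 0.15 to 0.17. The very small p-values there thus do not measure each gene's own spread between replicates.

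**Figure D1:**
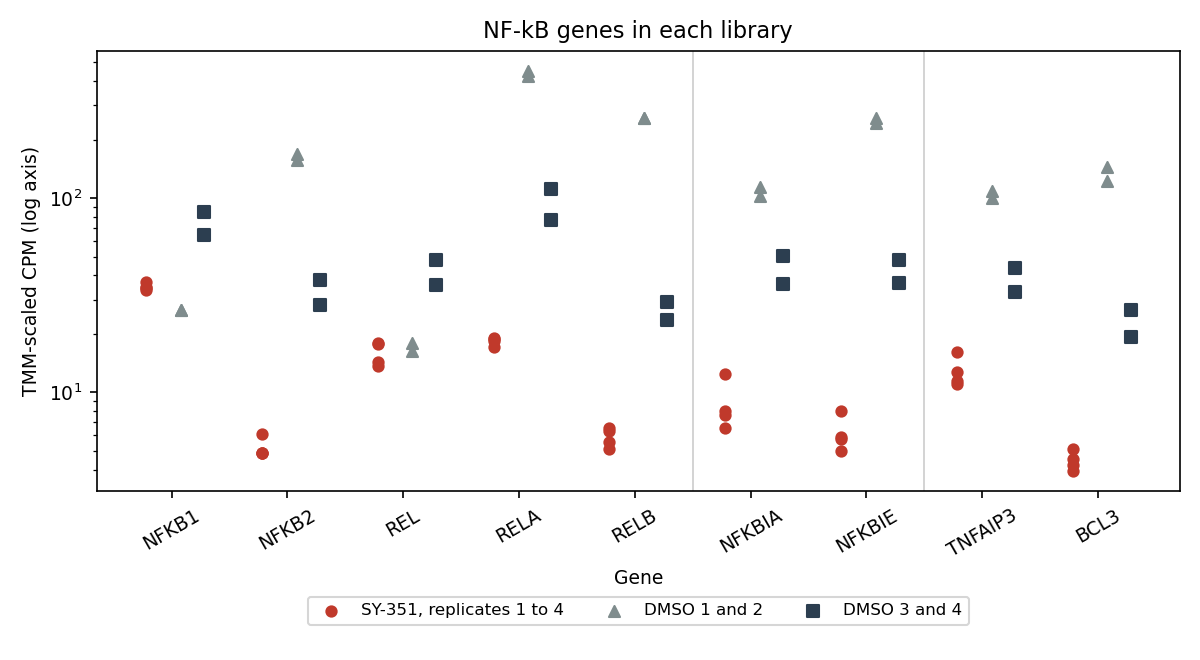
Level of each measured member in each library, in TMM-scaled CPM on a log axis, with SY-351 replicates as circles and the DMSO pairs as triangles (1 and 2) and squares (3 and 4); vertical lines part subunits, inhibitors and feedback genes. For 7 genes all circles lie below all DMSO symbols, while for NFKB1 the circles (33.6 to 37.0) lie between the DMSO pairs.

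Among the subunits, RELA, the activating partner of the common p50 dimer, was counted over chromosome 11, bases 65653595 to 65662972, minus strand, on GRCh38. It had 18.4, 18.9, 18.7 and 17.2 CPM in SY-351 replicates 1 to 4, against 453, 424, 77.6 and 111 CPM in DMSO replicates 1 to 4. The SY-351 values lay within a narrow band and the DMSO pairs far apart, yet the groups did not overlap. RELA fell by 3.86 ± 0.64 on the log2 scale (SE, adjusted p = 0.00828, edgeR), with a log2 fold of -2.34 ± 0.15 against DMSO 3 and 4 alone (adjusted p = 8.23e-50). Against DMSO 1 and 2 alone the log2 fold of RELA was -4.73 ± 0.07 (adjusted p = 1.75e-10, edgeR).

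RELB, the partner of p52 in the non-canonical pathway, was counted over chromosome 19, bases 45001463 to 45038192, plus strand. It had 5.09, 6.52, 5.56 and 6.33 CPM in SY-351 replicates, against 259, 259, 23.7 and 29.2 CPM in DMSO replicates. It had the widest gap between the DMSO pairs of the 9 members, with DMSO 1 and 2 at 9.79 times the mean of DMSO 3 and 4. Its log2 fold was -4.60 ± 0.90 with 8 libraries (adjusted p = 0.0134, edgeR) and -2.15 ± 0.16 against DMSO 3 and 4 (adjusted p = 1.07e-37). It was -5.61 ± 0.11 against DMSO 1 and 2 (adjusted p = 2.92e-10, edgeR). The call with 8 libraries ended when any 1 SY-351 library was left out, with adjusted p = 0.0578 to 0.0624 (edgeR).

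NFKB2, whose product p100 is both an inhibitor and the precursor of p52, was counted over chromosome 10, bases 102395704 to 102402524, plus strand. It had 4.85, 6.11, 4.86 and 4.87 CPM in SY-351 replicates, against 169, 158, 28.2 and 38.1 CPM in DMSO replicates. No SY-351 library reached the lowest DMSO library. NFKB2 fell by 4.25 ± 0.67 on the log2 scale (adjusted p = 0.00753, edgeR), with a log2 fold of -2.66 ± 0.16 against DMSO 3 and 4 (adjusted p = 1.84e-58). NFKB2 had a log2 fold of -5.12 ± 0.12 against DMSO 1 and 2 (adjusted p = 4.65e-10, edgeR).

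NFKB1, which encodes p105 and p50, differed from the others. It was counted over chromosome 4, bases 102501933 to 102617302, plus strand. It had 34.8, 33.6, 37.0 and 34.3 CPM in SY-351 replicates, against 26.6, 26.4, 64.5 and 84.7 CPM in DMSO replicates. The SY-351 libraries were above both of DMSO 1 and 2 and below both of DMSO 3 and 4, as were those of 9.86% of all genes. With 8 libraries the log2 fold was -0.53 ± 0.42 (adjusted p = 0.41, edgeR). NFKB1 was lower by a log2 fold of -1.07 ± 0.16 against DMSO 3 and 4 (adjusted p = 3.57e-11) and higher by 0.25 ± 0.09 against DMSO 1 and 2 (adjusted p = 0.0312, edgeR), so its direction is set by the choice of controls.

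REL, the c-Rel subunit of blood cells, was counted over chromosome 2, bases 60881573 to 60931612, plus strand. It had 13.6, 17.7, 17.9 and 14.3 CPM in SY-351 replicates, against 16.4, 17.9, 35.5 and 47.8 CPM in DMSO replicates. The groups overlapped through DMSO 1 and 2. The log2 fold was -0.89 ± 0.39 with 8 libraries (adjusted p = 0.163, edgeR), -1.37 ± 0.15 against DMSO 3 and 4 (adjusted p = 4.81e-18) and -0.25 ± 0.15 against DMSO 1 and 2 (adjusted p = 0.145). DESeq2 with 8 libraries called it lower (adjusted p = 0.0473).

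Both measured inhibitors fell. NFKBIA was counted over chromosome 14, bases 35401509 to 35404754, minus strand. It had 6.51, 7.64, 7.99 and 12.4 CPM in SY-351 replicates, against 103, 115, 36.1 and 50.1 CPM in DMSO replicates. Its highest SY-351 library was still below its lowest DMSO library. The log2 fold was -3.14 ± 0.46 (adjusted p = 0.00634, edgeR), and -2.31 ± 0.15 against DMSO 3 and 4 (adjusted p = 5.3e-48). Against DMSO 1 and 2 it was -3.80 ± 0.24 (adjusted p = 3.88e-06, edgeR).

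NFKBIE was counted over chromosome 6, bases 44258165 to 44265788, minus strand. It had 5.00, 5.74, 5.91 and 7.98 CPM in SY-351 replicates, against 245, 258, 36.6 and 48.1 CPM in DMSO replicates. The groups did not overlap. The log2 fold was -4.58 ± 0.75 (adjusted p = 0.00804, edgeR), and -2.77 ± 0.15 against DMSO 3 and 4 (adjusted p = 3.43e-69), where it was the largest fall of the 9 members. Against DMSO 1 and 2 NFKBIE had a log2 fold of -5.50 ± 0.17 (adjusted p = 1.19e-08, edgeR).

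Of the feedback genes, TNFAIP3 encodes A20, a ubiquitin-editing enzyme that shuts down signalling to IkB kinase. It was counted over chromosome 6, bases 137867258 to 137883312, plus strand. It had 11.5, 16.05, 12.8 and 11.04 CPM in SY-351 replicates, against 108, 101, 32.9 and 43.7 CPM in DMSO replicates. The groups did not overlap. TNFAIP3 fell by 2.47 ± 0.44 on the log2 scale (adjusted p = 0.0104, edgeR), with a log2 fold of -1.55 ± 0.15 against DMSO 3 and 4 (adjusted p = 5.88e-23). The log2 fold was -3.16 ± 0.15 against DMSO 1 and 2 (adjusted p = 3.41e-08, edgeR). Without SY-351 replicate 1, 3 or 4 the adjusted p was 0.0557, 0.0543 or 0.0524 (edgeR).

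BCL3 encodes a nuclear IkB protein that binds p50 and p52 dimers on DNA. It was counted over chromosome 19, bases 44748707 to 44760044, plus strand. It had 4.56, 3.92, 4.20 and 5.09 CPM in SY-351 replicates, against 145, 122, 19.2 and 26.4 CPM in DMSO replicates. The groups did not overlap. BCL3 fell by 4.14 ± 0.72 on the log2 scale (adjusted p = 0.00953, edgeR), with a log2 fold of -2.34 ± 0.17 against DMSO 3 and 4 (adjusted p = 4.52e-41). With DMSO 1 and 2 as the only controls it was -5.06 ± 0.13 (adjusted p = 6.98e-10, edgeR). Without SY-351 replicate 1 or 3 the adjusted p was 0.0505 or 0.0509 (edgeR).

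**Figure D2:**
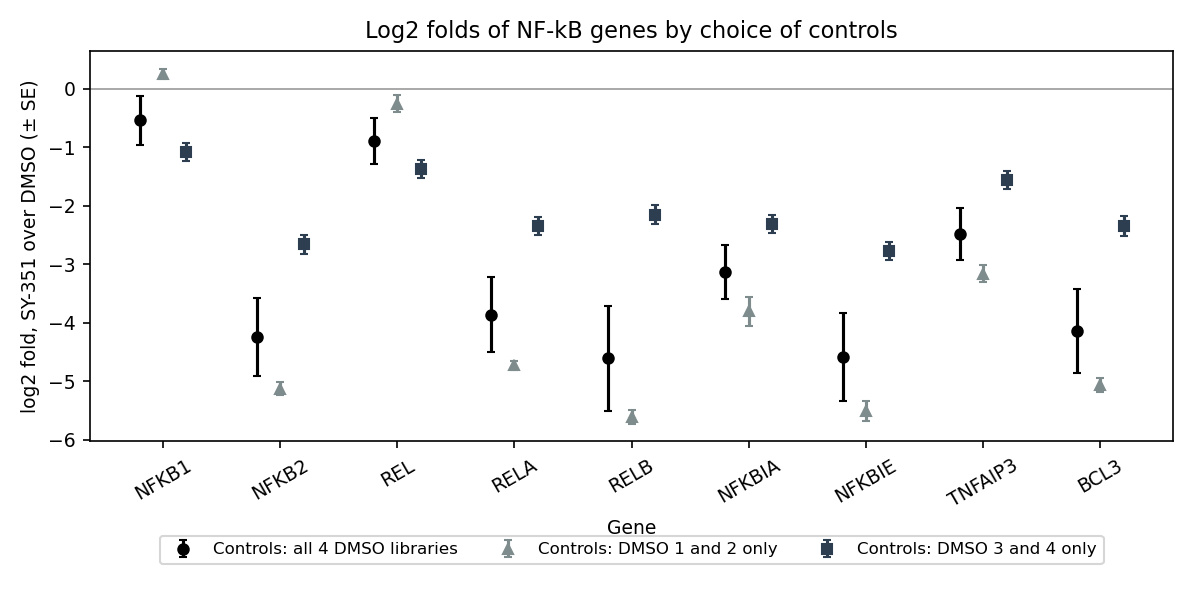
Log2 fold of SY-351 over DMSO for each measured member with its standard error, against all 4 DMSO libraries, against DMSO 1 and 2, and against DMSO 3 and 4. The 7 genes called lower with 8 libraries stay below 0 under each choice of controls, and NFKB1 changes sign (-1.07 against DMSO 3 and 4, 0.25 against DMSO 1 and 2).

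Summed over the 9 members, the level was 112 ± 5.41 CPM in SY-351 libraries and 960 ± 629 CPM in DMSO libraries (SD, n = 4 each). The DMSO sum was 1524 and 1481 CPM in replicates 1 and 2, and 354 and 479 CPM in replicates 3 and 4. In bulk RNA, fewer cells of a type and less RNA per cell cannot be told apart. Scaled CPM values are relative to the other genes of a library, so a change shared by all genes would not show.

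The balance between members also differed. Levels between genes are compared here as CPM per kilobase of transcript. The counts cover whole intervals with introns (115.37 kb for NFKB1, 6.821 kb for NFKB2). The lengths are those of 1 spliced transcript (3.707 and 3.011 kb). Reads from introns are thus not corrected for, and their part in the order and ratios below was not tested. In SY-351 libraries NFKB1 had the highest level, with a mean of 9.42, then RELA with 8.08 and NFKBIA with 5.54. The other 6 members had means of 1.41 to 2.71. In DMSO 3 and 4 the order began with RELA at 41.6, NFKBIA at 27.7 and NFKB1 at 20.1, and REL was lowest at 3.70. In DMSO 1 and 2 it began with RELA at 194, RELB at 113 and NFKBIE at 97.5, and NFKB1 stood at 7.15 above only REL at 1.52. The ratio of NFKB1 to NFKB2 was 4.47 to 6.18 in SY-351 libraries, against 1.81 to 1.86 in DMSO 3 and 4 and 0.128 to 0.136 in DMSO 1 and 2. The SY-351 ratio was above every DMSO ratio. The ratio of REL to RELB was 0.461 to 0.657 in SY-351 libraries, against 0.306 to 0.333 in DMSO 3 and 4 and 0.0129 to 0.0141 in DMSO 1 and 2. The ratio of NFKBIA to RELA, 0.515 to 1.05 in SY-351 libraries, overlapped that of DMSO 3 and 4 (0.657 to 0.677) and was above that of DMSO 1 and 2 (0.330 to 0.393). The ratio of NFKBIE to RELA was 0.239 to 0.408 in SY-351 libraries, against 0.381 to 0.414 in DMSO 3 and 4, with overlap, and 0.475 to 0.534 in DMSO 1 and 2. These ratios are descriptions with no test.

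GC content moved with the split of the controls. Over 15410 genes, the GC content of the transcript and the log2 ratio of DMSO 1 and 2 over DMSO 3 and 4 had a Spearman rho of 0.590, as a description across genes of the same 4 libraries. The rho was 0.071 for SY-351 over DMSO 3 and 4. The 7 members called lower have transcripts of 49.5% GC (TNFAIP3) to 67.4% GC (BCL3). In TMM-scaled CPM, DMSO 1 and 2 exceeded DMSO 3 and 4 in each of the 7, by log2 ratios of 1.33 (NFKBIA) to 3.29 (RELB). Part of each of these ratios comes from the TMM factors, which were lower in DMSO 1 and 2. Raw counts of NFKBIA were nearly equal, 7273 and 7799 in DMSO 1 and 2 against 7205 and 7075 in DMSO 3 and 4. Those of RELB were 18355 and 17643 against 4726 and 4128. REL with 38.7% GC and NFKB1 with 48.9% GC were the members with negative ratios, -1.28 and -1.49. The part of GC content in the folds with 8 libraries was not tested. Against DMSO 3 and 4 the 7 had log2 folds of -1.55 (TNFAIP3) to -2.77 (NFKBIE), and NFKB1 and REL had -1.07 and -1.37.

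**Figure D3:**
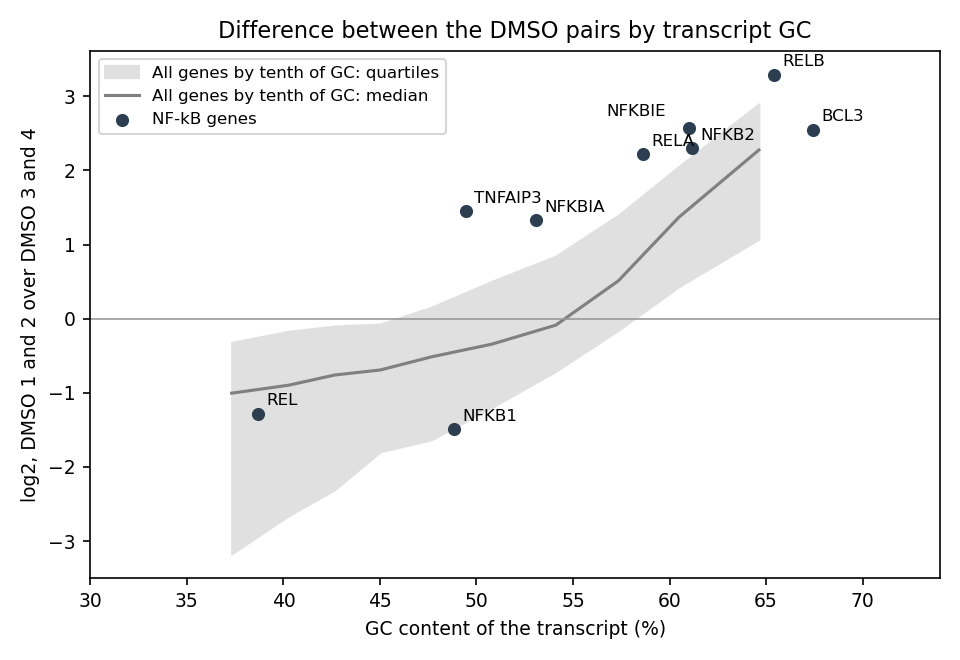
Log2 ratio of DMSO 1 and 2 over DMSO 3 and 4 against the GC content of the transcript, for each measured member (points) and for all genes in 10 bins of GC content (line, median; band, quartiles). REL and NFKB1 lie below 0 and the other 7 members above it, up to 3.29 for RELB.

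The rest of the pathway was read from the same fit, as 71 further genes in 5 lists, of which 61 were tested. With 8 libraries 17 of the 61 were called lower and 0 higher, where 13.6% of all genes were lower and 2.91% higher, and their median log2 fold was -0.73. Leaving out 1 SY-351 library left 3 to 6 called lower. The background fell too, to 473 to 602 of the 15718 to 15796 genes tested in those fits. Against DMSO 3 and 4, 31 of 62 were lower and 7 higher (background 26.4% and 21.9%). Against DMSO 1 and 2, 35 of 62 were lower and 18 higher (background 38.4% and 40.8%).

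Of 11 receptors tested, 3 were called lower with 8 libraries (13.6% of all genes were) and their median log2 fold was -0.73. Against DMSO 3 and 4, 5 were lower and 1 higher, where 26.4% and 21.9% of all genes were. Against DMSO 1 and 2, 5 were lower and 5 higher, where 38.4% and 40.8% of all genes were. The same shares are the background for each list below. TNFRSF1A, the main receptor for TNF, had 16.9, 20.2, 18.3 and 20.1 CPM in SY-351 replicates, against 455, 442, 116 and 154 CPM in DMSO replicates. It fell by 3.95 ± 0.54 on the log2 scale (adjusted p = 0.00499, edgeR), and its log2 fold was -2.82 against DMSO 3 and 4. The others were TNFRSF1B, the second TNF receptor, with log2 folds of -2.38 with 8 libraries and -1.30 against DMSO 3 and 4, and LTBR, the lymphotoxin receptor, with -2.43 and -1.15.

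Of 14 adaptors and ubiquitin ligases tested, 2 were called lower with 8 libraries, a share close to the 13.6% of all genes, and the list median was -0.52. Against DMSO 3 and 4, 6 were lower and 3 higher, and against DMSO 1 and 2, 7 were lower and 5 higher. MYD88, the adaptor of Toll-like receptors, had log2 folds of -1.90 with 8 libraries and -1.54 against DMSO 3 and 4, and TRADD, the adaptor of TNF receptors, -2.28 and -0.56. TRAF3, a brake on the non-canonical pathway, had a log2 fold of -1.57 with 8 libraries and did not pass (adjusted p = 0.0633, edgeR); against DMSO 3 and 4 it was -0.40. Of 11 kinases tested, 3 were called lower with 8 libraries (13.6% of all genes were), with a list median of -0.56. They were MAP3K8 (log2 fold -1.62 with 8 libraries, -1.50 against DMSO 3 and 4), IKBKE (-1.18 and -1.17) and TAB1 (-1.81 and -0.76), the last a partner protein of the kinase TAK1. With DMSO 3 and 4 as controls, 5 kinases were lower and 0 higher, and against DMSO 1 and 2, 7 were lower and 2 higher.

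Of 9 other inhibitors and deubiquitinases tested, 3 were called lower with 8 libraries (13.6% of all genes were), with a list median of -1.43. The median was -0.37 against DMSO 3 and 4, where 5 were lower and 2 higher, and against DMSO 1 and 2, 6 were lower and 2 higher. The 3 were N4BP1 (log2 fold -1.43 with 8 libraries, -0.89 against DMSO 3 and 4), the A20 partner TNIP1 (-1.89 and -0.99) and the nuclear IkB protein NFKBID (-2.03 and -0.79). Of 16 target genes tested, 6 were called lower with 8 libraries (13.6% of all genes were), with a list median of -1.21. The counts against DMSO 3 and 4 were 10 of 17 lower and 1 higher, and against DMSO 1 and 2, 10 were lower and 4 higher. Among those higher against DMSO 1 and 2 were the chemokine gene CXCL8 (log2 fold 6.16) and the survival gene BCL2A1 (3.75), picked after their values were seen, whose log2 folds against DMSO 3 and 4 were -1.54 and -1.09. CD83, a surface protein of activated cells, had 2.12, 2.75, 2.50 and 3.24 CPM in SY-351 replicates, against 7.52, 16.6, 19.3 and 25.9 CPM in DMSO replicates, and fell by 2.71 on the log2 scale with 8 libraries (log2 fold -3.08 against DMSO 3 and 4). PTGS2, the inducible cyclooxygenase, had log2 folds of -2.08 with 8 libraries and -1.89 against DMSO 3 and 4, at 0.303 to 0.608 CPM in SY-351 libraries. For PLAU, the urokinase gene, they were -1.64 and -1.92.

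**Figure D4:**
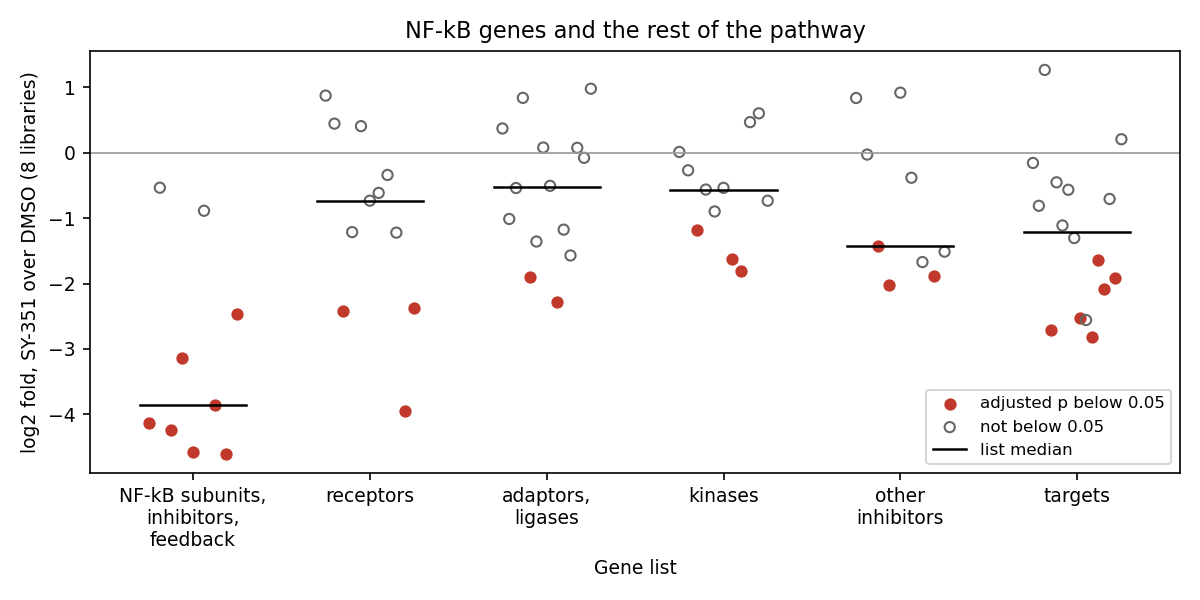
Log2 fold of SY-351 over DMSO with 8 libraries for the measured members and 5 lists of other pathway genes; filled points have an adjusted p below 0.05, open points do not, and bars mark medians. The members' median is -3.86 and the list medians run from -1.43 to -0.52.

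Markers of other blood cells were read in the same libraries. The 3 monocyte markers summed to 152 to 191 CPM in SY-351 libraries and 53.2 to 76.7 CPM in DMSO libraries. CSF1R carried the sum, with 147 to 187 CPM in SY-351 libraries and 1.40 to 66.7 CPM in DMSO libraries. CD14 went the other way, with 1.27 to 1.57 CPM in SY-351 libraries and 6.43 to 61.8 CPM in DMSO libraries (log2 fold -4.51, adjusted p = 0.0113, edgeR). The 4 T cell markers summed to 3.27 to 4.69 CPM in SY-351 libraries and 1.03 to 4.13 CPM in DMSO libraries. The 4 B cell markers summed to 16.2 to 17.8 CPM in SY-351 libraries and 5.42 to 13.9 CPM in DMSO libraries. The 3 erythroid markers stayed below 1 CPM in every library, and the 3 megakaryocyte markers summed to 27.0 to 30.9 CPM in SY-351 libraries and 7.99 to 32.9 CPM in DMSO libraries. No marker was at 0 in every library. Their part in the members' folds was not tested.

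The genes whose pattern over the 8 libraries was most like that of NFKBIA, by Euclidean distance of centred log2 CPM among 8226 genes, were TXNDC11 (distance 0.540), PAF1 (0.585) and BCL10 (0.609). TXNDC11 had 10.6 to 12.9 CPM in SY-351 libraries, against 48.7 to 167 CPM in DMSO libraries. These genes were chosen for their likeness, so a similar fold is fixed by the choice.

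Splicing was described from the authors' deposited table, which compares SY-351 with control in pooled form, so its values carry no replicate error. It held 5 local splicing variations in 3 members, NFKBIE, TNFAIP3 and REL, and all 5 passed the authors' posterior probability of 0.95, as did 55.7% of the 6716 variations in that table. The 5 are not 5 separate events. The NFKBIE variations share a junction of 3133 bases, seen from its source exon and from its target exon. The TNFAIP3 variations share a junction of 800 bases in the same way. Such shared junctions were not counted among the 6716.

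In NFKBIE the authors' deposited table gave the junction from exon 1 to exon 3, which skips exon 2, an inclusion of 37.2% in SY-351 cells and 3.1% in controls (probability 0.991). The junction from exon 1 to exon 2 had 62.2% in SY-351 cells and 94.8% in controls in the authors' deposited table. Exon 2 of transcript ENST00000275015.9 in GENCODE v29 has 103 bases, all coding, a length that is not a multiple of 3. It is shown because it is the piece left out, in capitals with 15 bases of the neighbouring exons on each side, read on the minus strand of GRCh38 (the exon itself is chr6:44262560-44262662).
NFKBIE exon 2: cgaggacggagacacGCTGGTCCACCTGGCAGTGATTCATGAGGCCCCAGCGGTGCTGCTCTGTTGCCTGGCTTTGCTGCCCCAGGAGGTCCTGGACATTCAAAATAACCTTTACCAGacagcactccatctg
Exons were matched to the authors' junctions by length, since that table's coordinates are on another build.

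In TNFAIP3 the authors' deposited table gave the annotated junction from exon 3 to exon 4 an inclusion of 16.6% in SY-351 cells and 88.2% in controls (probability 1). An unannotated junction from exon 3 that spans 800 bases in place of 652 had 82.9% in SY-351 cells and 10.9% in controls in the authors' deposited table. The 148 further bases equal the length of exon 4, so this junction ends just past that exon. The junction of 960 bases, from exon 3 to exon 5 without exon 4, had 0.3% in SY-351 cells and 0.3% in controls in the authors' deposited table. In REL the authors' deposited table gave the junction from exon 4 to exon 5 an inclusion of 65.1% in SY-351 cells and 99.7% in controls. The unannotated junction spanning 117 bases from exon 4 had 34.9% in SY-351 cells and 0.3% in controls there (probability 0.99). All 3 members with entries thus had less use of the annotated junction into the next exon in SY-351 cells, and for NFKBIE and TNFAIP3 this stood beside lower counts.

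**Figure D5:**
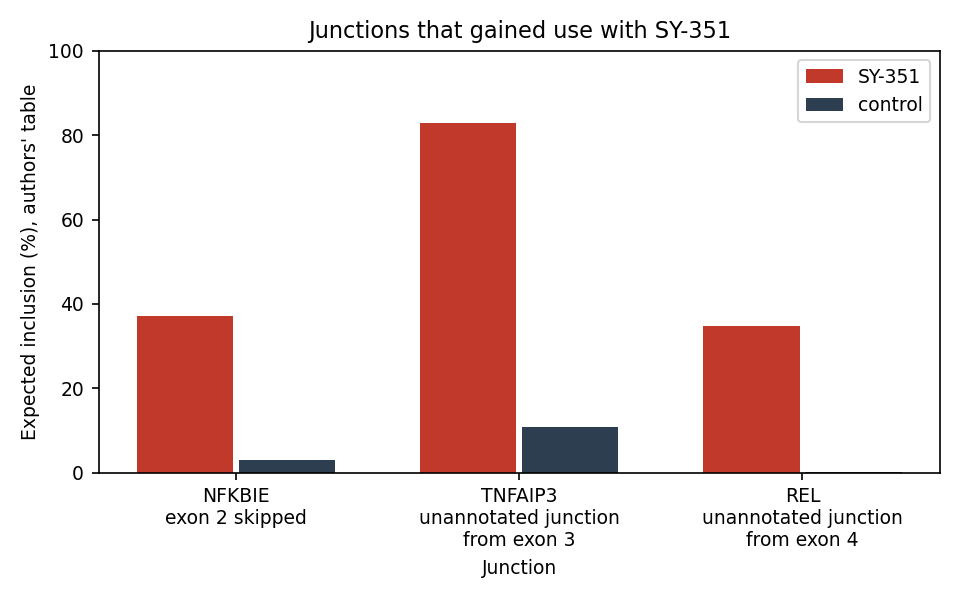
Expected inclusion in percent, from the authors' deposited table, of the junction that gained use in SY-351 cells in each of 3 members, with SY-351 and control bars side by side and no error bars because the table is pooled. The values are 37.2 and 3.1 for NFKBIE, 82.9 and 10.9 for TNFAIP3, and 34.9 and 0.3 for REL.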

How the data were processed

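Polyadenylated RNA was measured in 8 libraries, 4 of SY-351 and 4 of DMSO. The deposited expression table gives raw read counts, which the authors made with featureCounts 1.6.2 (strand setting 1) over 1 interval per RefSeq transcript, introns included, per the file headers. The build is GRCh38 and DESeq2 was used, per the submitters' processing notes. How each column combines its 2 technical repeats is not given in the sources used here. A deposited splicing table holds the authors' inclusion and probability scores, pooled by condition, under the column names of MAJIQ and Voila, per the file headers. Its difference, control minus SY-351, was turned round. Its folder name says no outliers, without naming the samples removed.

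Of 18093 rows, 17867 were given a symbol through a RefSeq table and 134 through GENCODE v29, and 13 were set aside for a shared symbol. No member's interval overlapped another row. The two-sided quasi-likelihood test of edgeR 4.0.16 (R 4.3.3) was run on all 8 libraries with group as its single term, TMM factors, filterByExpr and robust estimation, and p-values were adjusted by Benjamini-Hochberg at 0.05. Standard errors were obtained as the absolute log2 fold over the root of F. Alternatives were DESeq2 1.42.0, limma-voom 3.58.1, other scalings, no filter, a replicate block, leaving out each library, and each DMSO pair as the only controls. The fit was tested on data simulated from the SY-351 libraries with DMSO 3 and 4, so that test does not cover the split of the DMSO libraries. The members, lists and tests were chosen with earlier results of these data known, the split of the DMSO libraries included.

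The rule for named genes took all members, the 3 genes of each pathway list with the smallest adjusted p, the 3 genes of at least 10 CPM most like NFKBIA, MPO, and promoters of at most 4 members called lower with a kB match in 300 bases. BCL3 met that rule, but its match lies in the transcript, so its upstream bases are not printed. The inhibitors' proteins and CDK7 are not analysed here. Intervals of counting error are not given, since the spread between replicates is larger.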

Additional observations from a re-analysis of the deposited data

Results flagged for a closer look

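In the 4 SY-351 libraries, NFKB2 stood at 6.11 CPM in replicate 2 and at 4.85 to 4.87 CPM in the others, a gap that was a large part of the group's range. All 4 values were below every DMSO library (28.2 to 169 CPM). This was 1 of 18 groups of 4 values looked at, and chance flags about 1 in 20.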

How the results depend on the processing

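The 7 members called lower kept their direction under every alternative run. Over all genes, 2100 were called lower and 450 higher with 8 libraries. DESeq2 gave 3482 lower and 1062 higher, and total count scaling 215 higher. DMSO 3 and 4 as the only controls gave 4172 lower and 3466 higher, and DMSO 1 and 2 gave 5996 and 6372. Leaving out 1 library gave 473 to 3438 lower and 61 to 1885 higher. Members called lower numbered 4 to 7 when 1 library was left out, the fewest without SY-351 replicate 1 or 3, and 1 member, NFKB1, was higher against DMSO 1 and 2 alone, with a reversed log2 fold of 0.25. Other pathway genes called lower numbered 31 against DMSO 3 and 4, 35 against DMSO 1 and 2 and 3 to 24 when 1 library was left out. Those called higher numbered 7, 18 and 0 to 1 under the same choices. The cause of these shifts was not tested. The median log2 fold of all genes was 0.233 with limma-voom and -0.111 with DESeq2 size factors, against 0.004.

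With the replicate number as a block, 0 genes were called lower and 0 higher by edgeR, members and pathway genes included (0 each), while 3649 genes had an unadjusted p below 0.05 (4927 without the block). The 7 members had adjusted p of 0.0699 to 0.101 in that fit. Same-numbered libraries' deviations correlated at 0.001, -0.033, 0.007 and -0.134, and no SY-351 library correlated best with its own number. The DMSO deviations hold the split of DMSO 1 and 2 from DMSO 3 and 4 (r = 0.756 to 0.785 between the pairs). These correlations thus do not decide whether equal numbers mark paired samples. All 5 splicing variations in members also passed at probabilities of 0.90 and 0.50, and with a difference of at least 0.10 required as well. Those probabilities were looser than the main one, and every variation already had a far larger difference. All 5 therefore had to pass, and these thresholds do not test how firm the splicing calls are. Every member lay far above the value of 3 counts in every library.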
